A study of Mus musculus with 16 samples.

Results

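Heat shock proteins are chaperones that hold, fold and refold other proteins, and 10 of them that work in the cytosol or the mitochondrial matrix were followed here in mouse liver RNA. The members were chosen by gene symbol, as the rows of the deposited table whose Ensembl gene ID carries the symbol Hspa1a, Hspa1b, Hspa8, Hsph1, Hsp90aa1, Dnaja1, Dnajb1, Hspb1, Hspd1 or Hspe1. All 10 were found, each with 1 ID, among 35275 gene IDs. The values that follow are FPKM, a read count divided by gene length and library size, so that levels can be compared between genes.

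The 16 libraries were made from total RNA of mouse liver and fall into 4 groups of 4. WT mice had a normal Zfp36l1 gene, and mice called LKO here (L1 LKO in the labels) lacked Zfp36l1 in the liver. Each genotype was fed a control diet (Ctrl) or a diet containing ethanol (EtOH), with no other treatment named. Age, sex, strain, the Cre line and the length of feeding were not given in the sources used here. The labels do not say that the libraries of a group came from separate animals, so p-values measure the spread between these libraries. Libraries are numbered 1 to 4 within a group by record order, and no label says that equal numbers belong together.

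HSP70 proteins (Hspa1a, Hspa1b, Hspa8) bind unfolded stretches of protein and use ATP to release them, HSP40 cochaperones (Dnaja1, Dnajb1) bring the client and trigger the ATPase, and HSP110 (Hsph1) exchanges the nucleotide. HSP90 (Hsp90aa1) finishes the folding of kinases and hormone receptors, the small heat shock protein Hspb1 holds unfolded clients without ATP, and the chaperonin Hspd1 with its lid Hspe1 folds proteins inside mitochondria. Unfolded proteins set free the transcription factor HSF1, which binds repeats of the unit nGAAn, called heat shock elements, in the promoters of these genes.

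Zfp36l1, the deleted gene, was at 9.30 to 25.5 FPKM in the 8 WT libraries and at 0.572 to 1.76 FPKM in the 8 LKO libraries, so the labels of genotype held in each library. Library totals ran from 19069903 to 24768569 reads, except for 9890475 in WT ethanol library 2. That library stood apart: 22.5% of its reads came from mitochondrial genes, against 3.64% to 6.97% in the others, and its median rank correlation with the others was 0.691, against at least 0.905. The 10 members took 0.109% of its reads and 0.172% to 0.318% of the reads elsewhere. Results that rest on it are given with and without it. The remaining 15 libraries also split within every group along the first principal component of the within-group values, computed without the members, which held 40% of the variance: libraries 1 and 2 lay on one side (side 1) and libraries 3 and 4 on the other (side 2). WT ethanol library 2 was placed on neither side. The split thus followed the record order alike in all groups, and no label names a batch that matches it.

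Promoter windows of 250 bases before to 50 bases after the annotated start were available for 8 members (RefSeq, GRCm38.p6), all except Hspa8 and Hsp90aa1. Both strands were searched for pairs of facing units, GAANNTTC or TTCNNGAA, which overlap each other in longer arrays. Of the 8 members, 7 held a pair in at least 1 window, which was 8 of the 13 windows of these members, against 15.1% of 32851 promoter windows. Dnajb1 held none in its 2 windows. An array of 3 facing units (GAANNTTCNNGAA or TTCNNGAANNTTC) was present for Hspd1, Hspe1 and Hsph1, in 4 of the 13 windows, against 0.603% of all windows. The windows are not separate counts: several overlap, so that the 13 cover 9 separate stretches, and the 4 windows hold 2 separate arrays, one shared by Hspd1 and Hspe1 and one in both Hsph1 windows. A match is a run of letters and says nothing of binding. The windows are shown for the mitochondrial pair, whose start sites share one array, for Hspb1, whose level differed most between groups, and for Hspa1b, the inducible HSP70, with matched units in capitals and each read 5′ to 3′ along the gene's strand. They lie at chr1:55087898-55088197 (plus strand), chr5:135887669-135887968 (plus strand) and chr17:34959189-34959488 (minus strand).
Hspe1: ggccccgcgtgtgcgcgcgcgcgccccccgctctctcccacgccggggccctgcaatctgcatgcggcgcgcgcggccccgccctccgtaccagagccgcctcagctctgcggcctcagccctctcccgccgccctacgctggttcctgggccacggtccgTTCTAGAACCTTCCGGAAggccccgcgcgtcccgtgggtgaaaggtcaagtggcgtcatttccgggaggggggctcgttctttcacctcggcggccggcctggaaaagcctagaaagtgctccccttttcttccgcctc
Hspb1: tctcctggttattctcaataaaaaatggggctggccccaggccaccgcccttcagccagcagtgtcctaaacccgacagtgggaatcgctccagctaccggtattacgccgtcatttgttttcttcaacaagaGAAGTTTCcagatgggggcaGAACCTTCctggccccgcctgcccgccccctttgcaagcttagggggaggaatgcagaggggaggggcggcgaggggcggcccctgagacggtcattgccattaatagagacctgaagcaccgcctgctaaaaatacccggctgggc
Hspa1b: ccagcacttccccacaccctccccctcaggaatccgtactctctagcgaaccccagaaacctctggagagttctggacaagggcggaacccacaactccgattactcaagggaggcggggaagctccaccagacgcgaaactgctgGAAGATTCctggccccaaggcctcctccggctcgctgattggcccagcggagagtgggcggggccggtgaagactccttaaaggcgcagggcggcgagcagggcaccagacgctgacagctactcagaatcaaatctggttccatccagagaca
Counted from the start, with bases before it negative, the Hspe1 array began at position -89. The same letters lay in a window of Hspd1 on the opposite strand, because 285 bases of the windows were shared between these genes, which are transcribed away from each other. In Hspb1 the pairs began at positions -117 and -97, and in Hspa1b and Hspa1a the single pair began at -104.

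By mean FPKM over the 16 libraries the order was Hspa8 360, Hspd1 193, Hspe1 141, Hsp90aa1 50.2, Dnaja1 45.4, Hspb1 22.2, Dnajb1 10.9, Hsph1 8.88, Hspa1b 5.61 and Hspa1a 0.346. The constitutive HSP70, Hspa8, was thus the highest member, and it lay above Hspd1 in 16 of 16 libraries. The inducible HSP70 genes were at the bottom, and Hspa1b lay above Hspa1a in 16 of 16. Some neighbours in the order were not separated by the spread: Hsp90aa1 exceeded Dnaja1 in 7 of 16 libraries, and Hspb1 exceeded Dnajb1 in 10 of 16. Hspd1 exceeded Hspe1, its lid, in 13 of 16.

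**Figure D1:**
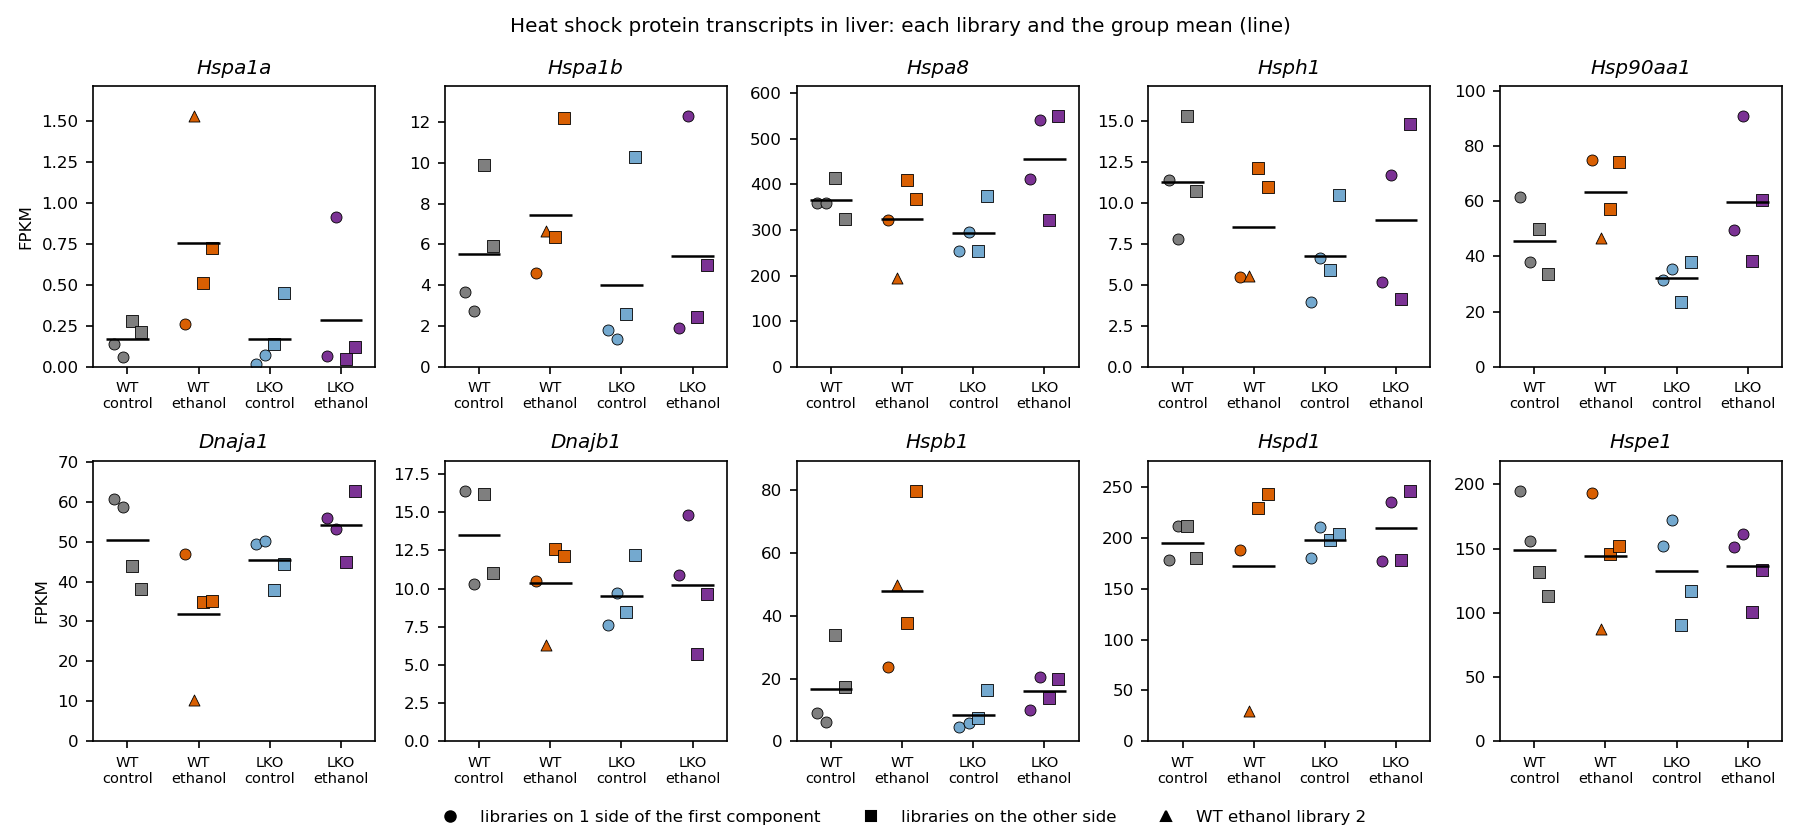
FPKM of each member (1 panel each, vertical axis from 0) in every library of the 4 groups, with the group mean as a line. Circles and squares mark the libraries of side 1 and side 2 of the within-group split and the triangle is WT ethanol library 2; Hspb1 is highest in ethanol-fed WT (23.8 to 79.8 FPKM), and Hspd1, Dnaja1 and Hspa8 have their lowest value in that triangle.

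Differences were tested on log2(FPKM + 1) with limma's moderated test for the genes with an FPKM of at least 1 in at least 4 libraries, which kept 9 of the 10 members and 11298 genes. Hspa1a did not pass. Calls were made at an adjusted p under 0.05 (Benjamini-Hochberg over the 11298 genes), and adjusted p-values are of this kind unless stated.

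Of the members, Hspb1 alone passed the test with ethanol in all 16 libraries, and only on the average of both genotypes, and the members' shares of calls lay near those of all genes. In WT liver 0 of the 9 tested members were called, while 4.18% of all genes were. An unadjusted p under 0.05 was found for 2 members (Hspb1 and Dnaja1) and for 2225 of the 11298 genes. In LKO liver again 0 of 9 were called, against 0.425% of all genes. Hspa8 and Hsp90aa1 had an unadjusted p under 0.05, as did 1038 of the 11298 genes. All 9 differences were above 0 in LKO liver, with a median log2 difference of 0.27 (0.056 over all genes), and 3 of 9 were above 0 in WT liver, with a median of -0.22 (-0.024 over all genes). The LKO count rested on single libraries: it was 6 of 9 without LKO ethanol library 2 (median 0.10), 7 of 9 without LKO ethanol library 4 (0.17) and 8 of 9 without LKO control library 1 or 3. It was also 6 of 9 with median-of-ratios scaling, 7 of 9 with array weights and 8 of 9 with quantile normalization. Within side 2 the LKO difference was -0.48 for Hspa1b and -0.41 for Dnajb1, and within side 1 it was -0.05 for Hspe1. Without WT ethanol library 2 the WT count was 6 of 9 and the median 0.15 (0.17 over all genes). When the ethanol differences of both genotypes were averaged, which uses all 16 libraries, 1 of 9 members was called, Hspb1, against 7.78% of all genes. The comparison of the ethanol difference between genotypes called 0 of 9 members and 0% of all genes, with 362 genes at an unadjusted p under 0.05. Hspa8 was the only member among these (LKO minus WT difference 0.83, unadjusted p = 0.0488, adjusted p = 0.927), next to Dnaja1 (1.04, unadjusted p = 0.0522, adjusted p = 0.927). Without WT ethanol library 2 the order was the other way round, with Dnaja1 at 0.59 (unadjusted p = 0.0453, adjusted p = 0.968) and Hspa8 at 0.61 (unadjusted p = 0.0534, adjusted p = 0.968), and 499 genes at an unadjusted p under 0.05.

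No member was called between genotypes. On the control diet 0 of 9 were called, against 0.00885% of all genes. No member passed 0.05 before adjustment, while 390 of the 11298 genes did. With ethanol 0 of 9 were called, against 0.0797% of all genes (0.00885% to 3.43% when 1 library was left out). Hspb1 and Dnaja1 passed 0.05 before adjustment, as did 1347 of the 11298 genes. Averaged over both diets 0 of 9 were called, against 0.142%. Hspb1 passed 0.05 before adjustment, as did 1176 of the 11298 genes. On the control diet 1 of 9 differences was above 0, and the median was -0.45 (-0.10 over all genes).

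**Figure D2:**
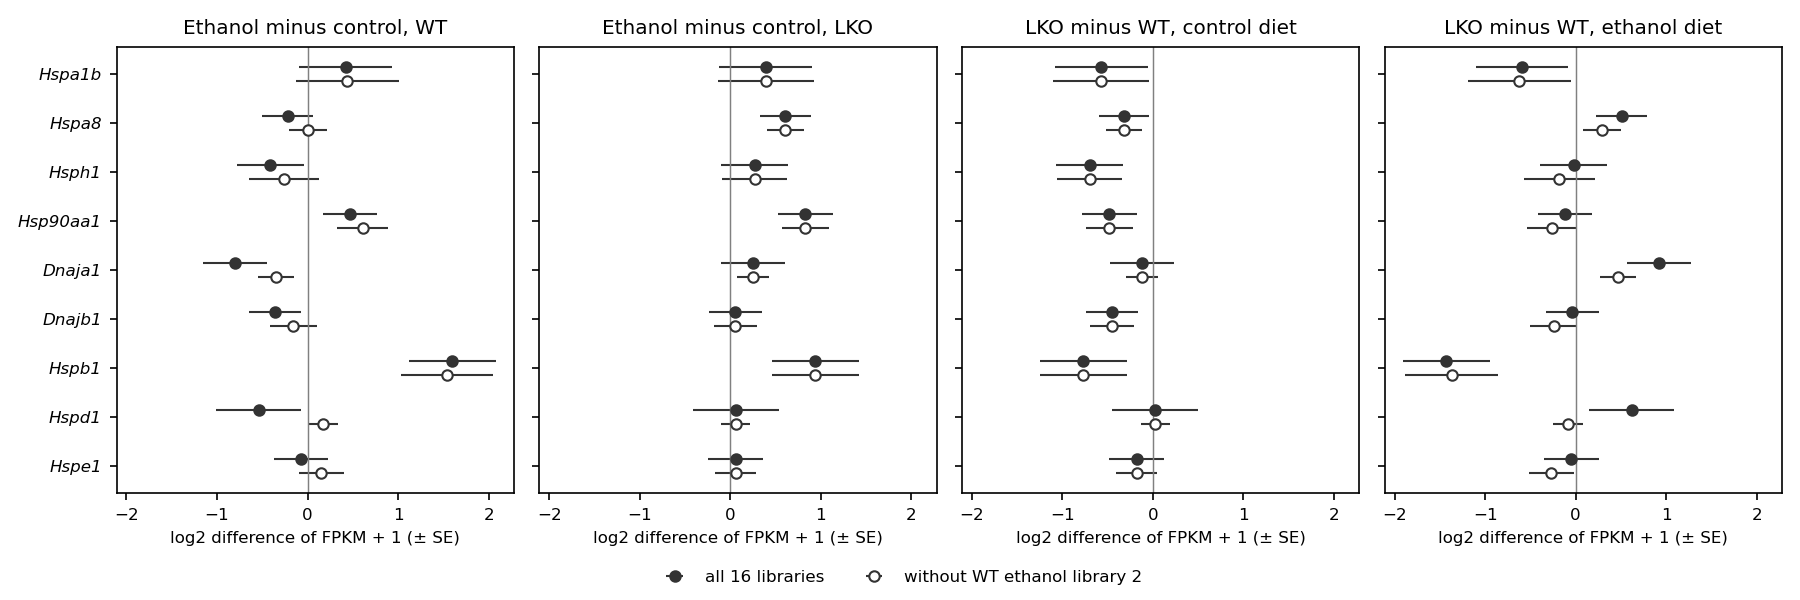
Log2 difference of FPKM + 1 (horizontal axis) with its standard error for the 9 members that passed the filter, in 4 comparisons. Filled points use all 16 libraries and open points leave out WT ethanol library 2; Hspb1 lies farthest from 0 in ethanol-fed WT (1.60) and in LKO against WT on ethanol (-1.43), and the Hspd1 point in WT crosses from -0.54 to 0.17.

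Hspb1 (chromosome 5, bases 135887919 to 135889563 of the plus strand, GRCm38), which encodes the small heat shock protein HSP25 of the mouse, was the member whose level differed most between groups. In WT liver it was at 8.91, 6.31, 33.9 and 17.3 FPKM on the control diet and at 23.8, 49.8, 37.6 and 79.8 FPKM on the ethanol diet. In LKO liver it was at 4.58, 5.72, 7.39 and 16.3 FPKM on the control diet and at 10, 20.5, 13.8 and 19.9 FPKM on ethanol. WT control library 3 reached into the range of the WT ethanol group, and LKO control library 4 into that of the LKO ethanol group, so neither ethanol comparison separated its groups. On the ethanol diet every LKO library lay below every WT library, and Hspb1 was the 1 member of 10 whose genotype groups did not overlap there, in a comparison in which 2.69% of all genes did not overlap. On the control diet no member separated the genotypes (9.25% of all genes did).

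The group means of Hspb1 were 16.6 ± 12.5 FPKM (SD, n = 4) in control-fed WT, 47.7 ± 23.9 in ethanol-fed WT, 8.5 ± 5.33 in control-fed LKO and 16.1 ± 5.02 in ethanol-fed LKO. WT on ethanol was thus the highest group, and the mean of ethanol-fed LKO lay close to that of control-fed WT. The averaged ethanol difference was 1.27 (SE 0.34, adjusted p = 0.0285). Within the genotypes it was 1.60 (SE 0.48, adjusted p = 0.0682) in WT and 0.94 (SE 0.48, adjusted p = 0.606) in LKO, and the difference between these was -0.66 (SE 0.67, adjusted p = 0.927). LKO minus WT was -1.43 on ethanol (SE 0.48, adjusted p = 0.278), -0.77 on the control diet (adjusted p = 1) and -1.10 over both diets (SE 0.34, adjusted p = 0.265). The call rests on single libraries: leaving out any 1 of WT control 1 or 2, WT ethanol 4, LKO control 1, 2 or 3, or LKO ethanol 2 gave an adjusted p between 0.0539 and 0.0678, with differences of 1.10 to 1.26. Without WT ethanol library 2 it was 1.24 (adjusted p = 0.0214).

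Hspb1 also followed the split within groups. It was higher in both libraries of side 2 than in those of side 1 in 3 of 4 groups, with medians of 18.6 and 8.91 FPKM. Within side 1 the averaged ethanol difference was 1.44 and within side 2 it was 0.85, and LKO minus WT over both diets was -0.58 and -1.37, with 1 ethanol-fed WT library on side 1. With the side as a term and without WT ethanol library 2, 1 of 9 members was called in WT (Hspb1, 1.38, adjusted p = 0.0225), against 19.7% of all genes. In the same model 1 of 9 members was called for LKO against WT over both diets (Hspb1, -0.99, adjusted p = 0.032), against 11.1% of all genes. The split was found from these libraries, so this model describes them and is no independent test.

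Markers of liver cell types were read in the averaged ethanol comparison, beside the 7.78% of all genes called (20.5% without WT ethanol library 2). Of the tested markers 0 of 6 were called for hepatocytes (1 rose and 1 fell without WT ethanol library 2), 0 of 5 for Kupffer cells and macrophages, 0 of 2 for T, B and NK cells and 0 of 5 for red cell precursors (1 fell without that library). The summed level of the 5 red cell precursor markers was 147 to 237 FPKM in control-fed WT, 107 to 231 in control-fed LKO and 158 to 261 in ethanol-fed LKO. In ethanol-fed WT it was 2160.0 in library 2 and 100 to 286 in the other libraries. Among the others 1 marker each of neutrophils (Retnlg, of 3 tested), sinusoidal endothelium (Lyve1, of 4), stellate cells (Des, of 5) and cholangiocytes (Sox9, of 1) rose. The summed level of the 5 neutrophil markers was 0.978 to 6.11 FPKM in control-fed WT, 11.3 in WT ethanol library 2 and 2.58 to 9.73 in the other ethanol-fed WT libraries. In LKO it was 1.5 to 5.06 on the control diet and 2.84 to 20.7 on ethanol. For the 4 cholangiocyte markers it was 1.25 to 2.81 in control-fed WT, 8.62 in WT ethanol library 2 and 2.30 to 4.76 in the other ethanol-fed WT libraries, and 1.15 to 2.34 and 1.79 to 3.81 in LKO. For the 4 endothelial markers it was 33.2 to 65 in control-fed WT, 8.76 in WT ethanol library 2 and 39.8 to 62.2 in the other ethanol-fed WT libraries, and 25.7 to 76.2 and 28.7 to 76.7 in LKO. For the 5 stellate cell markers it was 35.9 to 123 in control-fed WT, 16 in WT ethanol library 2 and at least 110 in each of the others, and 40.7 to 119 and 82.7 to 116 in LKO. The part of these cells in the Hspb1 level was not tested. In whole liver RNA, fewer cells of a type and less RNA per cell cannot be told apart. Hepatocyte markers summed to at least 41865 FPKM in every library, and the 2 fat and 3 pancreas markers stayed under 1 FPKM.

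Hsp90aa1, the stress-inducible form of cytosolic HSP90 (chromosome 12, bases 110690605 to 110702728, minus strand), had the next largest ethanol difference on the average of both genotypes. It was at 61.7, 37.8, 49.8 and 33.6 FPKM in control-fed WT and at 75.0, 46.7, 57.3 and 74.1 on ethanol. In LKO it was at 31.6, 35.3, 23.4 and 38.0 on the control diet and at 49.5, 90.9, 38.4 and 60.4 on ethanol. The WT groups overlapped, and the LKO groups did not, with LKO control library 4 and LKO ethanol library 3 nearly touching. Hsp90aa1 was the 1 member of 10 whose LKO groups did not overlap, in a comparison in which 12.3% of all genes did not, and no member separated the WT groups (10.1% of all genes did). The differences were 0.47 in WT (SE 0.30, adjusted p = 0.402), 0.83 in LKO (SE 0.30, adjusted p = 0.316) and 0.65 on average (SE 0.21, adjusted p = 0.0672). Without WT ethanol library 2 the average was 0.72 (adjusted p = 0.0144), so 2 of 9 members were then called, Hspb1 and Hsp90aa1, against 20.5% of all genes. In those 15 libraries 0 of 9 members were called within WT (9.48% of all genes) and 0 of 9 within LKO (3.62%). The smallest adjusted p of a member within LKO was then 0.0879 in limma, for Hsp90aa1.

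The averaged Hsp90aa1 difference was alike on both sides of the split, 0.80 and 0.67. With the side as a term, 2 of 9 members were called on average (Hspb1, and Hsp90aa1 with 0.74, adjusted p = 0.00523), against 32.6% of all genes, and 2 of 9 in LKO (Hsp90aa1, adjusted p = 0.0362, and Hspa8, adjusted p = 0.0458), against 10.7% of all genes.

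Hspa8 (chromosome 9, bases 40800984 to 40810087, plus strand) had the highest level of the 3 HSP70 members. It was at 359, 360, 415 and 325 FPKM in control-fed WT and at 322, 195, 409 and 368 on ethanol, and at 255, 296, 253 and 374 and then 412, 542, 321 and 550 in LKO. In LKO, 3 of 4 ethanol libraries lay above every control library, while in WT 2 of 4 ethanol libraries (322 and 195) lay below every control library and the groups overlapped. The difference was 0.61 in LKO (SE 0.28, adjusted p = 0.506) and -0.22 in WT (SE 0.28, adjusted p = 0.704), the latter 0.005 without WT ethanol library 2. The ethanol difference in LKO minus that in WT was 0.83 (SE 0.39, adjusted p = 0.927), and 0.61 without that library (adjusted p = 0.968). Leaving out any 1 of the 16 libraries gave ethanol differences in LKO of 0.51 to 0.77, with limma adjusted p-values from 0.0998 to 0.969.

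Hspa1b, the inducible HSP70 (chromosome 17, bases 34956436 to 34959238, minus strand), varied more between libraries than between groups. It was at 3.69, 2.71, 9.90 and 5.92 FPKM in control-fed WT, at 4.62, 6.67, 6.35 and 12.2 in ethanol-fed WT, at 1.79, 1.38, 2.61 and 10.3 in control-fed LKO and at 1.90, 12.3, 2.46 and 5 in ethanol-fed LKO. Single high libraries stood in both LKO groups, and all groups overlapped. The 4 differences ran from -0.59 to 0.42, each with an SE of 0.51.

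Hspa1a, its neighbour (bases 34969190 to 34972156), rested on 1 to 57 reads a library. It was at 0.141, 0.0565, 0.277 and 0.210 FPKM in control-fed WT, at 0.260, 1.53, 0.514 and 0.727 in ethanol-fed WT, at 0.0148, 0.0701, 0.139 and 0.450 in control-fed LKO and at 0.0629, 0.911, 0.0450 and 0.122 in ethanol-fed LKO. Its WT ethanol libraries were mostly above the WT control libraries, with 1 of them inside the control range. A two-sided exact permutation test of mean log2(FPKM + 1) gave a WT difference of 0.54 (p = 0.0571, adjusted over the 4 comparisons p = 0.229) and, in the same exact test, 0.10 in LKO (p = 0.714). LKO minus WT was -0.01 on the control diet (exact p = 0.971) and -0.45 on ethanol (exact p = 0.2), with 0.0286 the smallest p that 4 against 4 allows. Without WT ethanol library 2 the WT difference was 0.35 (exact p = 0.0571) and LKO minus WT on ethanol was -0.26 (exact p = 0.343). The coding sequences of Hspa1a and Hspa1b were 99.4% identical over 1929 aligned bases in GENCODE M21, and 58.8% of the 50-base windows of Hspa1a also occurred in Hspa1b. How the counting treated such reads was not given, so the split between them is uncertain. The Hspa1a to Hspa1b ratio was 0.23 in WT ethanol library 2 and between 0.00829 and 0.0809 in the other 15.

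Hsph1, the HSP110 nucleotide exchange factor, and the HSP40 genes showed no called difference. Hsph1 averaged 11.3 ± 3.08 FPKM (SD, n = 4) in WT and 6.74 ± 2.73 in control-fed LKO, and 8.54 ± 3.51 and 8.94 ± 5.13 on ethanol. Its largest difference was LKO minus WT on the control diet, -0.70 (SE 0.37, adjusted p = 1). Dnajb1, the HSP40 partner of the inducible HSP70, ran from 5.73 to 16.4 FPKM, and its 4 differences ran from -0.45 to 0.056, with an SE of 0.29.

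Dnaja1, an abundant HSP40, was at 60.6, 58.6, 43.8 and 38.1 FPKM in control-fed WT and at 47.0, 10.3, 34.8 and 35.2 on ethanol. In LKO it was at 49.4, 50.1, 37.9 and 44.4 and then at 55.9, 53.2, 44.8 and 62.7. On ethanol 3 of 4 LKO libraries were above every WT library, and the groups overlapped, with LKO library 3 (side 2) below WT library 1 (side 1). Within the sides LKO minus WT on ethanol was 0.21 on side 1, with 1 ethanol-fed WT library, and 0.59 on side 2. LKO minus WT on ethanol was 0.92 (SE 0.35, adjusted p = 0.332) and 0.47 without WT ethanol library 2 (SE 0.20, adjusted p = 0.256). The ethanol difference in WT was -0.80 (adjusted p = 0.222) and -0.35 without that library (adjusted p = 0.291).

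The mitochondrial chaperonin hardly moved once WT ethanol library 2 was set aside. Hspd1 was at 178, 211, 211 and 180 FPKM in control-fed WT, and at 188, 29.9, 229 and 243 on ethanol. In LKO it lay between 180 and 210 on the control diet and was at 177, 235, 178 and 246 on ethanol. The single low value, 29.9, gave the WT ethanol group its SD of 97.9, against 12.7 to 36.6 in the other groups. The WT difference was -0.54 with that library (SE 0.47) and 0.17 without it (SE 0.17, adjusted p = 0.581). For Hspe1 the WT difference was -0.07 with and 0.15 without it, and in LKO Hspd1 and Hspe1 differed by 0.063 and 0.059 between diets.

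Hspd1 (chromosome 1, bases 55077835 to 55088243, minus strand) and Hspe1 (bases 55088132 to 55091307, plus strand) overlap at their starts, and their ratio was not constant. The FPKM ratio of Hspd1 to Hspe1 lay between 0.914 and 1.45 in the libraries of side 1, between 1.57 and 2.19 in those of side 2, and at 0.343 in WT ethanol library 2. Hspe1 was lower in both side 2 libraries than in every side 1 library of its group in 4 of 4 groups, with medians of 161 FPKM on side 1 and 125 on side 2, while Hspd1 medians were 188 and 207. The HSP90 pair behaved likewise, with Hsp90ab1, the constitutive form, at 88.9 to 180 FPKM on side 1 and 222 to 379 on side 2. The ratio of Hsp90aa1 to Hsp90ab1 was 0.270 to 0.749 on side 1 and 0.0967 to 0.206 on side 2. Hsp90ab1 was among the genes from which the split was found, so its levels by side are a description. On side 2 the Hsp90aa1 to Hsp90ab1 ratio was 0.0967 to 0.14 on the control diet and 0.151 to 0.206 on ethanol. On side 1 it was 0.323 and 0.533 against 0.749 in WT, which had 1 ethanol-fed library there. In LKO it was 0.270 and 0.333 against 0.505 and 0.557. The diets on side 1 were thus apart within each genotype and overlapped only when the genotypes were pooled. For Hspd1 to Hspe1 the diets overlapped on both sides. How many other gene pairs would be apart was not computed. The cause of the split was not tested.

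**Figure D3:**
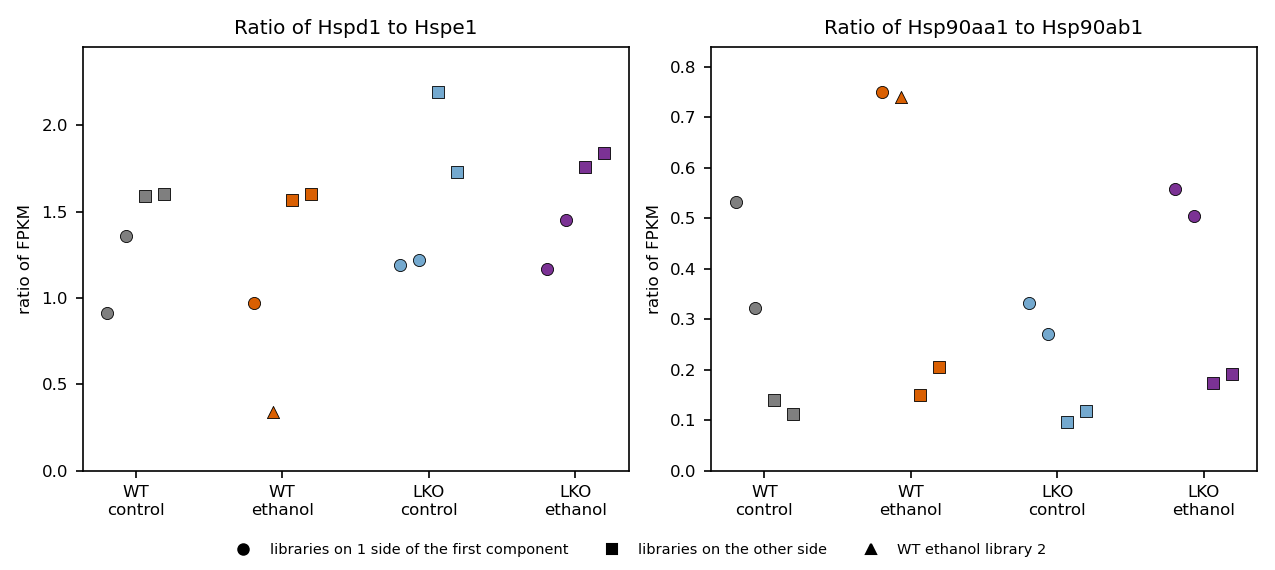
FPKM ratio of Hspd1 to Hspe1 (left) and of Hsp90aa1 to Hsp90ab1 (right) in every library, vertical axes from 0. Circles and squares are the libraries of side 1 and side 2 and the triangle is WT ethanol library 2; squares lie at 1.57 or above on the left and at 0.206 or below on the right.

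The other genes of the heat shock network were taken as 7 lists of 80 genes, of which 74 were tested. In the averaged ethanol comparison 7.78% of all genes were called. Of the list of the heat shock factors Hsf1, Hsf2 and Hsf4 and of Hsbp1, which binds HSF1, 1 of 4 fell, and the list median was -0.18 (0.023 over all genes). Hsf1, the factor that drives the heat shock response, differed by 0.011 (SE 0.23, adjusted p = 0.985), and its libraries ran from 3.26 to 11.3 FPKM. Hsf4, a relative best known from the lens, fell by 0.74 on the log2 scale (SE 0.21, adjusted p = 0.0396), from 5.93 ± 1.79 to 3.32 ± 1.47 FPKM in WT and from 5.43 ± 1.81 to 2.79 ± 0.852 in LKO (SD, n = 4). That call was lost when any 1 of 10 libraries was left out, with an adjusted p of up to 0.0901: each of the 4 WT control libraries, WT ethanol 1, LKO control 2, 3 and 4, and LKO ethanol 2 and 3.

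Of the 12 tested other HSP70, HSP110, HSP90 and HSP40 genes, most of them cytosolic, 1 rose (beside the 7.78% of all genes called), Hspa4l, an HSP110 relative of Hsph1. It was at 2.69, 2.98, 2.52 and 2.40 FPKM in control-fed WT and 6.59, 2.90, 3.32 and 5.10 on ethanol, and at 1.58, 1.57, 1.49 and 1.65 and then 3.08, 4.13, 2.94 and 2.74 in LKO. The LKO groups were fully apart, and in WT only library 2 of the ethanol group reached the controls. The averaged difference was 0.62 (SE 0.14, adjusted p = 0.0141). Of 19 cochaperones 1 rose in that comparison, Bag2, an exchange factor and brake on the HSP70 partner CHIP, at 0.564, 0.834, 1.32 and 0.877 FPKM in control-fed WT and 2.18, 2.23, 3.30 and 3.10 on ethanol. In LKO it was at 0.473, 0.447, 0.840 and 0.629, and then 0.728, 2.34, 2.42 and 1.74. The WT groups did not overlap, and 1 LKO ethanol library, the first, fell within the LKO controls. Bag2 passed the filter only through the ethanol libraries, as 1.32 was its only control value of at least 1 FPKM. Its calls are thus not independent of the filter, although the averaged call also held with no filter on low values. Bag2 differed by 0.96 in WT (SE 0.21, adjusted p = 0.0193, where 4.18% of all genes were called), 0.77 in LKO (SE 0.21, adjusted p = 0.147) and 0.87 on average (SE 0.15, adjusted p = 0.0023), and the averaged call held without any 1 library. The WT call was lost without WT control 1, 2 or 4 or WT ethanol 4 (adjusted p up to 0.0716), with scaling to equal sums and with only the compared groups in the fit (up to 0.0869).

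None of the 3 tested other small heat shock proteins, 14 mitochondrial chaperones and proteases, 8 subunits of the cytosolic chaperonin CCT or 14 endoplasmic reticulum chaperones passed the test on average, with list medians of 0.045, -0.012, 0.027 and 0.078. At an unadjusted p under 0.05 there was 1 gene among these 4 lists, the CCT subunit Cct4, beside 2442 of the 11298 genes tested. Without WT ethanol library 2 more genes were called: 4 of the 12 other HSP70 to HSP40 genes rose (among them Hspa4 by 0.57 and Dnajb4 by 0.47), 5 of 19 cochaperones rose (among them Bag3 by 0.87) and 1 fell, 2 of 14 mitochondrial genes rose, and 1 of 14 endoplasmic reticulum genes rose (Hspa5 by 0.63, adjusted p = 0.0198). These shares stand beside the 20.5% of all genes called in that comparison, and the median over all genes was 0.11.

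**Figure D4:**
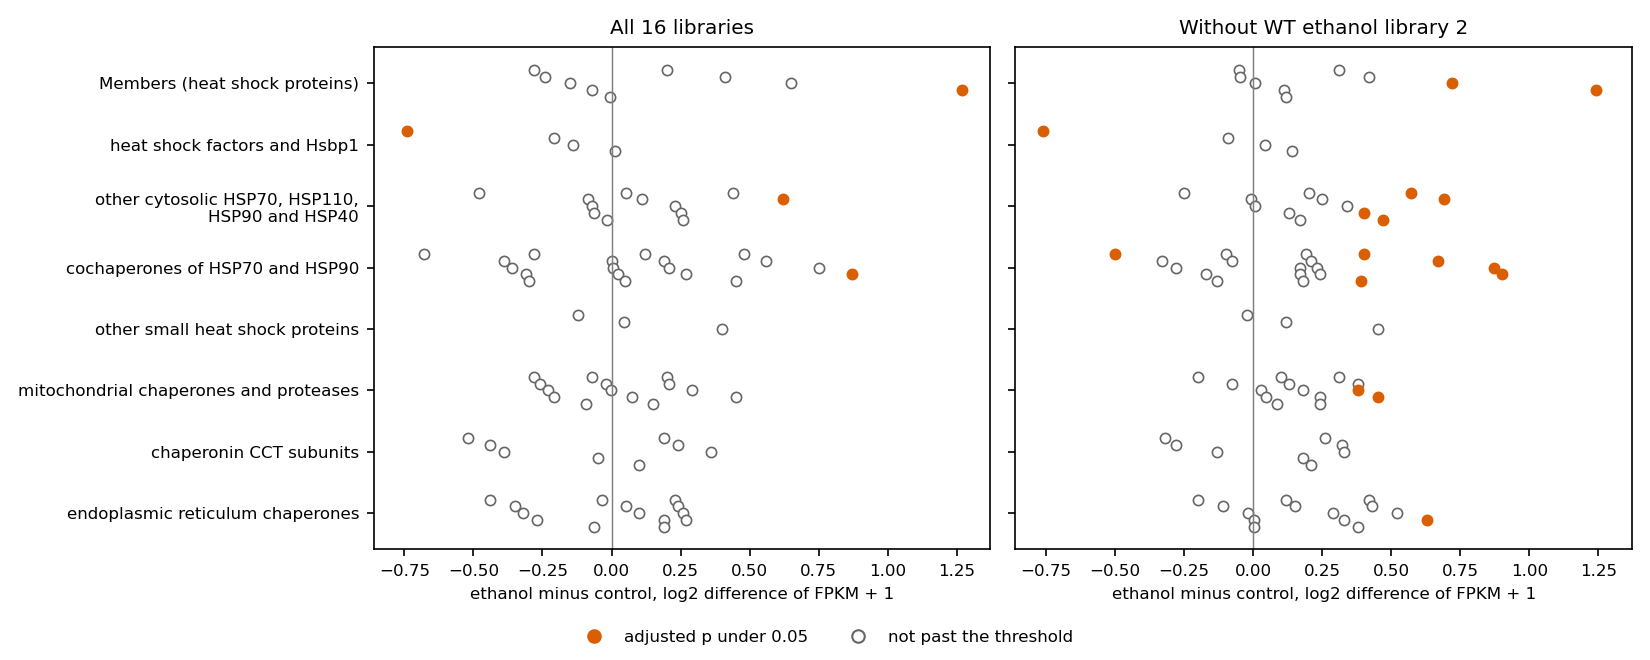
Averaged ethanol minus control difference (log2 of FPKM + 1, horizontal axis) of each tested gene, by list, with all 16 libraries (left) and without WT ethanol library 2 (right). Filled points passed an adjusted p of 0.05 in limma; on the left these are Hspb1, Hsf4, Hspa4l and Bag2.

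Across libraries the members did not move as one set. Spearman's rho of FPKM with Hsph1 over the 16 libraries, which pool the 4 groups and so share diet, genotype and the split, was 0.71 for Dnajb1, 0.70 for Hspa8, 0.74 for Hspd1 and 0.65 for Hspa1b, but 0.08 for Hspe1 and 0.03 for Dnaja1. The 5 genes outside the members most like Hsph1 were Smad3 (0.85), Vps37b, Tcf3, Bcl2l12 and Sik1 (0.84 each). For Hspd1 they were Mpg (0.91), Adpgk, Rhoa and Eloa (0.89 each) and Sp100 (0.88), from 10441 genes compared.

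The protein made from Zfp36l1 recognises AU-rich runs near the end of messenger RNA, of which TATTTAT is a core form. Of the 10 members 1, Hsph1, held TATTTAT in the annotated 3′ end after its coding sequence, with 1 match, against 29.1% of 10529 tested genes. The median length of these ends was 1112 bases in the tested genes. All members but Dnaja1 (4203) and Dnajb1 (1834) were shorter, at 83 to 963 bases, which leaves less room for a match. Hsph1 did not pass the test in LKO against WT. Several members share sequence with copies elsewhere in GENCODE M21: 74.8% of the 50-base windows of Hspa8, 58.5% of Hsp90aa1, 51.6% of Hspb1, 44.8% of Hspd1 and 44.8% of Hspe1 occurred in another gene, against 0% for Hsph1. The Hspb1 copy, the pseudogene Hsp25-ps1, was listed at 0 to 6.30 FPKM, and how reads common to both were counted was not given.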

How the data were processed

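The deposited table holds FPKM values per gene and library, made by the authors; the submitters' processing notes name fastp, STAR 2.6.1, HTSeq, DESeq2 and the build mm10, with no roles, and the annotation and strand setting were not given in the sources used here. Whole reads and library totals were worked out from the steps between low FPKM values (100.0% of values within 0.1 of a whole read among 20520 genes) and used for the depths and the shares of reads, never in a test. Symbols and positions came from GENCODE M21 (GRCm38), with a symbol for 34490 of 35275 IDs. Values were tested as log2(FPKM + 1), which understates changes of low genes, with limma 3.58.1 in R 4.3.3 (group means of 4 groups, eBayes with trend), after a filter of FPKM of at least 1 in at least 4 of 16 libraries. All tests are two-sided. Python 3.11.15 with scipy 1.17.1 gave the exact tests. The procedures were tested on simulated data. The members, lists, alternatives and split term were chosen with earlier results of these data known. All members were named; of the lists, genes called with 16 libraries (at most 4 a list and comparison) and Hsf1; and for Hsph1 and Hspd1 the 5 most alike genes. Hsp90ab1, Cct4 and the genes named for the 15 libraries, other than these, were chosen after their values were seen.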

Additional observations from a re-analysis of the deposited data

Results flagged for a closer look

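In 2 groups of 4 libraries a single library lay far from the rest for a member, by a gap larger than Dixon's 95% limit for 4 values. Hspa1a was at 0.911 FPKM in LKO ethanol library 2, against 0.045 to 0.122 in the other 3. Hspa1b was at 10.3 FPKM in LKO control library 4, against 1.38 to 2.61 in the other 3. The 10 members and 6 other heat shock genes were looked at in 4 groups each, which is 64 cases (40 for the members), and chance alone passes this limit in about 1 of 20. The 2 cases found are thus no more than chance alone would give. Both genes are inducible HSP70 genes that share most of their sequence, and the cause of the high values was not tested.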

How the results depend on the processing

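Members called, of 9 tested, depended on the processing in 4 comparisons, and the share of all genes called moved too. For ethanol in WT 1 member (Hspb1) was called instead of 0 after quantile normalization (8.25% of all genes), with array weights (15.3%) and with the side term without WT ethanol library 2 (19.7%). Leaving out 1 library gave 0 to 1 (1.29% to 9.48% of all genes). For ethanol in LKO array weights gave 1 (Hspa8, beside 9.89% of all genes) and the side term 2 (10.7%). For the average of both genotypes, where 1 was called, no filter on low values (2.63% of all genes) and scaling to equal sums of FPKM (4.74%) gave 0. There quantile normalization (12.9%), array weights (25.9%) and the side term (32.6%) gave 2 (Hsp90aa1 and Hspb1). Leaving out 1 library gave 0 to 2 (4.59% to 20.5% of all genes). For LKO against WT over both diets array weights (14% of all genes) and the side term (11.1%) gave 1 (Hspb1). Array weights set WT ethanol library 3 at 0.014, the lowest of all. The other counts, and those with a pseudocount of 0.1, median-of-ratios scaling, robust eBayes or only the compared groups, stayed the same.

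No called value changed sign. Among 63 differences 12 uncalled ones changed sign with array weights, 11 without WT ethanol library 2, 10 with the side term, 8 with median-of-ratios scaling and 6 with equal sums. The median over all genes moved with the setting: for ethanol in WT it was -0.0244, and 0.258 with array weights and 0.166 without WT ethanol library 2. For LKO against WT on ethanol it was -0.031, and -0.34 with array weights, and on the control diet -0.103, and 0.0127 with median-of-ratios scaling. For the difference between the ethanol differences it was 0.0894, and 0.195 with equal sums, -0.221 with array weights and -0.123 without that library. The Hspa4l call was lost with equal sums (adjusted p = 0.074 in limma), that of Hsf4 also without the filter, with equal sums and with array weights (up to 0.0871), and that of Bag2 in WT also with equal sums and with only the compared groups (up to 0.0869). Depth limits Hspa1a most (1 to 57 reads). No paired analysis was made, because the numbers in the titles differ in all 16 libraries and no label says which libraries belong together. Some of the numbers are consecutive between a control and an ethanol library of a genotype, and whether these mark pairs was not given.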
